A study of Mus musculus with 8 samples.

Results

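Transcripts of 10 genes of the neutrophil defence programme were followed through all droplet RNA libraries of a study of newborn and late fetal mouse blood stem cells. They are S100a8 and S100a9, the stefin genes Stfa1, Stfa2, Stfa2l1, Stfa3, Cstdc4 and Cstdc5, and the antimicrobial genes Camp and Ngp, that is 10 of the 32285 genes in each matrix. They were picked because they stood out in these same libraries, so their levels are a description and carry no test against other genes. All libraries came from a sort for Epcr+ Lin- Sca-1+ Kit+ cells after c-Kit bead enrichment, a gate that enriches hematopoietic stem cells (HSCs) and is meant to leave mature neutrophils out. Tissues of 7 wild-type mice aged 2 days (P2) were merged, and their bone marrow, their liver and their spleen each went into 1 library. An embryonic day 19 (E19) library, also wild type, carries the title of bone marrow but a tissue field of fetal liver, so it is named by age alone. A pair of P2 pups of genotype Tppp3CreER LSLTdTomato, given tamoxifen at P0, gave 2 further libraries from hashtagged bone marrow and spleen. In those pups the reporter marks cells in which the Tppp3 promoter drove CreER, and their progeny. The sorts were crossed. In tube 1, 145 tdTomato-positive cells came from pup 1 and 5500 tdTomato-negative ones from pup 2. In tube 2 the tdTomato-negative cells (5156) came from pup 1 and the tdTomato-positive ones (180) from pup 2. Sort, pup and tube are therefore tied together within each tube, and age, genotype, tamoxifen and batch (1, 2 and 3 for the pool, E19 and the pups) cannot be told apart between the libraries.

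S100a8 and S100a9 encode the subunits of calprotectin, a calcium- and zinc-binding protein that fills the cytoplasm of neutrophils and starves microbes of metals. Stefins are small intracellular proteins that block papain-like cysteine cathepsins, and the mouse has a young cluster of them that is strongly transcribed in granulocytes. Camp encodes the precursor of the antimicrobial peptide cathelicidin and Ngp neutrophilic granule protein, both stored in secondary granules that form at the myelocyte stage. In granulocyte development primary granule proteases are made first, secondary granule proteins next, and the mature cell keeps calprotectin while it stops making granule contents.

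The 6 stefin genes lie side by side on chromosome 16 (mm10/GRCm38, 36156811 for the start of Stfa2l1 to 36455392 for the outer end of Stfa3), S100a8 and S100a9 on chromosome 3 (90668978 to 90670035, plus strand, and 90692632 to 90695721, minus strand), and Camp and Ngp on chromosome 9 (109847379 to 109849617, minus strand, and 110419747 to 110423012, plus strand). The promoters of the stefin genes were taken as 250 bases before to 50 bases after the RefSeq start in build GRCm38.p6. Shown here are the longest exact runs, within the 250 upstream bases, shared by all 6 stefin members and by the 5 without Cstdc4. The runs were picked from these same promoters, so their counts over all promoters are a description only. The capitals mark the shared run of 15 bases, printed with its surroundings on the strand of each gene:
Stfa1 (chr16:36276899-36276928, plus strand): tgatggcATTATTGGCACAGAGactgcagg
Cstdc5 (chr16:36367770-36367799, minus strand): tgatggcATTATTGGCACAGAGactgcagg
Stfa2 (chr16:36408584-36408613, minus strand): agtaacATTATTGGCACAGAGattgcaggg
Stfa2l1 (chr16:36156561-36156590, plus strand): aacATTATTGGCACAGAGattgcagagagg
Stfa3 (chr16:36455613-36455642, minus strand): atgatATTATTGGCACAGAGcgtgcaggaa

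This run, ATTATTGGCACAGAG, was searched on both strands and occurred in 5 of 32851 RefSeq promoters (0.0152%), those of the 5 genes shown. It began 242, 222, 244, 247 and 245 bases before the start of Stfa1, Cstdc5, Stfa2, Stfa2l1 and Stfa3. Closer to the start, all 6 stefin members share a run of 12 bases with a TTTAAA core, in capitals below on the strand of each gene:
Stfa1 (chr16:36277106-36277135, plus strand): ctttcggatACCTTTAAAACCctgagtctc
Cstdc5 (chr16:36367571-36367600, minus strand): gaggaggagtttacagatACCTTTAAAACC
Stfa2 (chr16:36408375-36408404, minus strand): cttacagaaACCTTTAAAACCctgagtctc
Stfa2l1 (chr16:36156766-36156795, plus strand): tttacagaaACCTTTAAAACCctgagtctc
Stfa3 (chr16:36455406-36455435, minus strand): ttacagataACCTTTAAAACCccgagtctc
Cstdc4 (chr16:36184171-36184200, plus strand): tttacagatACCTTTAAAACCctgactctt

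ACCTTTAAAACC, on either strand, was found in 11 promoters (0.0335%), among them those of the neighbouring stefin genes Csta3 and Cstdc3, which are no members. In Stfa1, Stfa2, Stfa2l1, Stfa3 and Cstdc4 it began 32 to 36 bases before the start, and in Cstdc5 12 bases before it. By GENCODE the printed windows of this run overlap annotated exons in Stfa1, Stfa2 and Cstdc5, while those of the longer run lie outside exons in all 5 genes. Over the aligned bases the promoters of Stfa1 and Cstdc5 were 96.1% identical and those of Stfa2 and Stfa2l1 92.3%. The C/EBP palindrome TTGCGCAA was in none of the 10 member promoters and in 0.164% of all promoters, while the looser TTNNGNAA was in 8 of 10 and in 36.8% of all, both strands searched. These matches describe the letters in the window only.

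Near-identical copies limit how far the stefin counts can be split. Over the aligned bases the transcripts of Stfa1 and Cstdc5 were 97.1% identical. Of the 90-base windows near the 3' end that the assay reads, 28.3% in Cstdc5 occurred unchanged in Stfa1 or Cstdc6, 12.5% in Stfa1 occurred in Cstdc5, 16.1% in Cstdc4 occurred in Csta2, and 2.57% were shared by Stfa2 and Stfa2l1. Each member was searched only against the other members and Csta2, Csta3 and Cstdc6, with the longest transcript of each gene. Within that set no 90-base window was shared by Stfa3, S100a8, S100a9, Camp or Ngp. Other genes, Cstdc3 among them, were not searched. Among pairs of members Stfa1 and Cstdc5 shared the most, so their split is the least certain. Cstdc4 and Cstdc5 also have windows in common with the non-members Csta2 and Cstdc6. How reads from shared windows were counted was not tested.

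Cells with at least 1000 genes, at least 2000 UMIs and at most 10% mitochondrial UMIs were kept and the highest doublet scores removed, which left 34403 cells (6046, 5320 and 8255 in the pooled marrow, liver and spleen, 9713 at E19, and 2657 and 2412 in tubes 1 and 2). The median cell held 6384 to 7942 UMIs in the first 4 of these libraries and 20041 and 20341.5 in the tubes. At most 34 barcodes were shared by any pair of libraries. Cells were grouped into 39 clusters without the member genes and named from marker lists, so names here rest on rebuilt classes. Members entered the naming only as a veto. A cluster stayed unnamed if its 10 leading genes held more members than markers of its best list, unless that list was neutrophil-like. HSC-like cells of the pool fell mainly into clusters 2 and 5, those of E19 and tube 1 into clusters 0, 1, 3 and 4, and those of tube 2 into clusters 9 and 19, which held almost no cells of other libraries.

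Member transcripts made up 0.0410%, 0.373% and 0.0202% of all UMIs in pooled bone marrow, liver and spleen, 0.0648% at E19, 0.0226% in tube 1 and 1.37% in tube 2. Tube 2 alone thus held 731879 of the 1046509 member UMIs and liver 215236. Tube 2 and liver were also the highest for both calprotectin subunits, with S100a8 at 225, 1325, 116, 179, 44.6 and 2664 CPM (the gene's UMIs scaled to all UMIs of the cells summed) and S100a9 at 68.5, 866, 23.9, 185, 67.7 and 4000 CPM in the 6 libraries in that order. S100a8 exceeded S100a9 in the 3 pooled tissues and S100a9 exceeded S100a8 in tubes 1 and 2, with near-equal levels at E19. CPM from 3' tags counts transcripts without regard to their length.

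The stefins split into an abundant and a restricted set. Stfa1 stood at 91.4, 778, 49.7, 87.0, 22.1 and 1420 CPM over all kept cells, and Cstdc5 at 18.2, 336, 9.11, 44.1, 14.2 and 979 CPM. Cstdc4 followed with 1.95, 89.7, 0.793, 34.3, 10.3 and 620 CPM. Stfa2, Stfa2l1 and Stfa3 were almost missing from pooled bone marrow and spleen, where Stfa2 gave 1 and 2 UMIs, against 342 to 442 CPM in tube 2. Camp stood at 3.68, 222, 2.24, 34.3, 26.0 and 1521 CPM and Ngp at 0.286, 66.0, 0.175, 34.5, 23.5 and 1368 CPM, so Ngp shared with the restricted stefins its near-absence from pooled bone marrow and spleen (16 and 13 UMIs). The lowest and highest libraries thus differed far more for Ngp, Stfa2, Stfa2l1 and Stfa3 than for S100a8 or Stfa1.

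Most cells held none or very few member transcripts, and a small group held very many. No member UMI was found in 86.8% of kept cells in pooled bone marrow, 50.8% in liver, 91.9% in spleen, 94.5% at E19, 89.6% in tube 1 and 14.4% in tube 2. Cells with at least 1% of their UMIs in the members, called member-rich, numbered 552 in all (1.60%) and held 92.9% of all member UMIs. They made up 0.629% of pooled bone marrow cells (95% exact binomial interval 0.445 to 0.862, 38 cells), 2.84% of liver cells (2.41 to 3.32, 151 cells), 0.279% of spleen cells (0.177 to 0.418, 23 cells), 0.268% at E19 (0.175 to 0.392, 26 cells), 0.188% in tube 1 (0.0611 to 0.439, 5 cells) and 12.8% in tube 2 (11.5 to 14.2, 309 cells). These intervals cover counting error only, since each library is 1 sample. With S100a8 and S100a9 left out of the sum the share was 0.0496% in pooled bone marrow (3 cells), 1.79% in liver (95) and 0.0606% in spleen (5), so there it rests largely on calprotectin, while it was 0.216% at E19, 0.188% in tube 1 and 12.1% in tube 2.

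How rich the richest cells were also differed. The highest share of a cell's UMIs in the 10 genes was 6.47% in pooled bone marrow and 5.98% in spleen, against 48.8% in liver, 52.6% at E19, 29.6% in tube 1 and 38.2% in tube 2. At least 10% was reached by no kept cell of pooled bone marrow or spleen, 32 of liver, 16 of E19, 4 of tube 1 and 246 of tube 2. In tube 1, tube 2 and E19 the member-rich cells held 97.0%, 98.9% and 96.8% of the member UMIs, but in pooled bone marrow and spleen 51.2% and 59.1%, so there much of the signal came from cells with a lower share. The threshold of 1% cut through a continuum in some libraries, with 728 cells between 0.5% and 1% (648 of them in liver) and 96 between 1% and 2%. The 5 cells just below it held 0.974% to 0.997% and the 5 just above 1.003% to 1.011%.

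**Figure D1:**
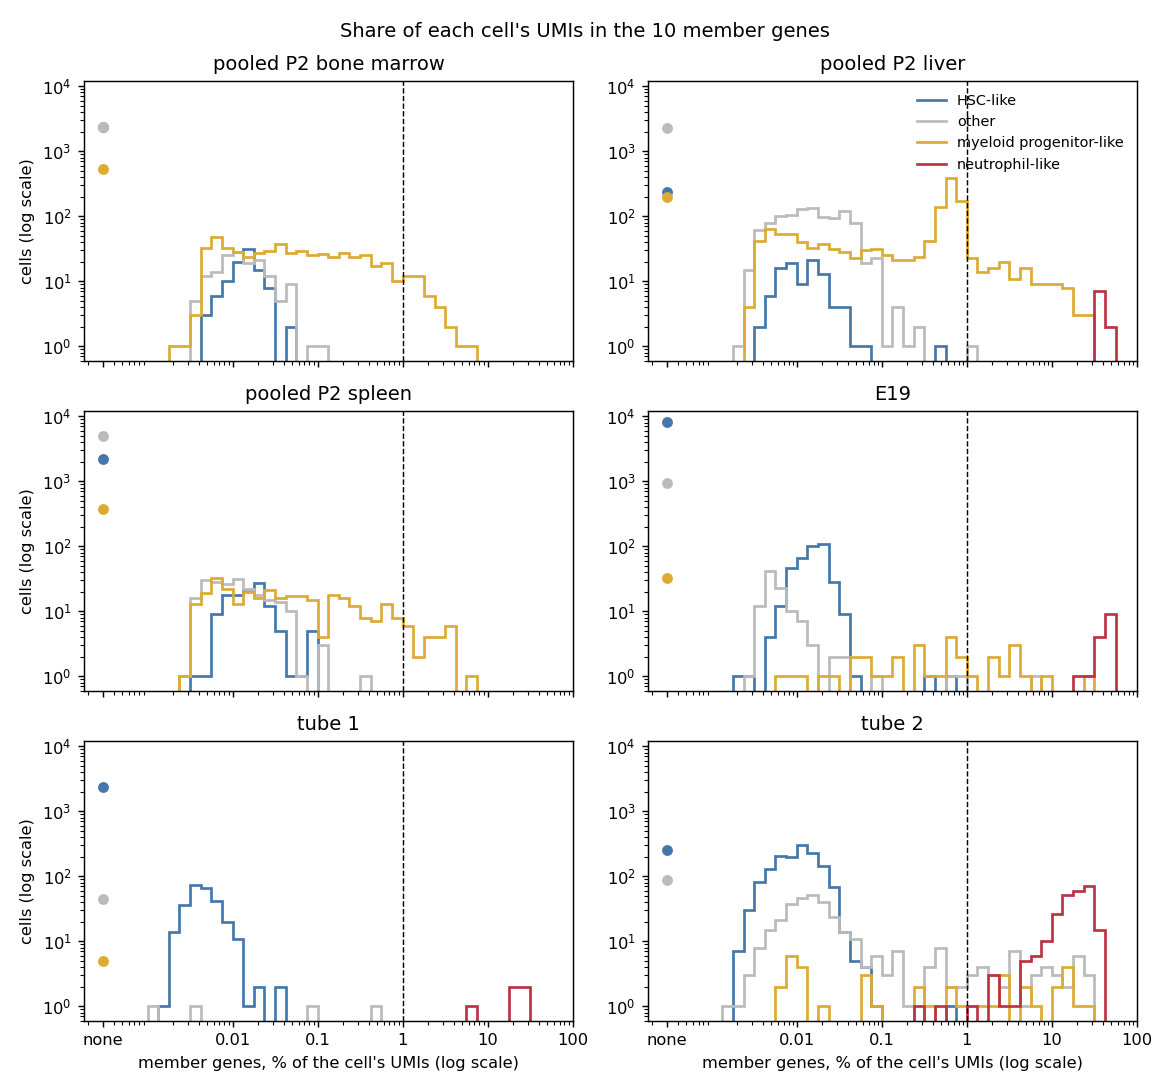
Number of cells (log scale) by the share of each cell's UMIs in the 10 member genes (log scale) for the 6 libraries, by cell class, with cells without a member UMI as points at the left and the 1% threshold as a dashed line. In tube 2 the neutrophil-like cells form a hill around 20% apart from the HSC-like cells near 0.01%, while in pooled bone marrow and spleen myeloid progenitor-like cells run out to about 6% with no second hill.

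The plot of cell shares shows that the class holding the richest cells was not the same in every library. In pooled bone marrow and spleen all 38 and 23 member-rich cells were myeloid progenitor-like. In liver 141 were myeloid progenitor-like, 9 neutrophil-like and 1 dendritic-like. At E19 the counts were 10, 15 and 1, tube 1 had 5 neutrophil-like cells only, and tube 2 had 251 neutrophil-like, 17 myeloid progenitor-like, 15 dendritic-like and 26 in an unnamed cluster. No HSC-like, B cell-like or erythroid-like cell was member-rich in any library.

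Neutrophil-like cells were the class in which all 10 genes ran high together. There were 282 of them, 9 in liver, 15 at E19, 5 in tube 1 and 253 in tube 2 (10.5% of its cells), and 280 were member-rich. They were named from Ltf, Lcn2, Retnlg, Mmp8 and 8 further neutrophil markers that are no members. In tube 2 they held none of the transcripts behind 2 of the gate's antigens, Ly6a (Sca-1) and Procr (Epcr), at an upper limit of 1.42 CPM each, and Kit gave 13 UMIs in all. The summed level of the 12 HSC markers was 18.5 CPM and that of the 12 neutrophil markers 36949 CPM. Their median mitochondrial share was 0.290% against 1.63% in the rest of the tube, and their median depth 7179 UMIs. Whether they passed the sort or entered later was not tested.

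Within these cells the members together stood at 412783 CPM in liver, 360103 at E19, 234533 in tube 1 and 232821 in tube 2. S100a9 was the most abundant, at 112106 CPM in liver, 106149 at E19, 70979 in tube 1 and 68708 in tube 2. S100a8 followed at 100696, 89168, 45572 and 43724 CPM. The ratio of S100a9 to S100a8 was thus 1.11 in liver and 1.19 at E19 but 1.56 and 1.57 in the tubes. Both pairs come from different batches and from few cells outside tube 2.

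Among the stefins of neutrophil-like cells, Stfa1 led with 45196 CPM in liver, 40072 at E19, 22891 in tube 1 and 23447 in tube 2. Cstdc5 stood at 32976, 24235, 14733 and 16564 CPM and Cstdc4 at 18078, 21091, 10769 and 10718 CPM. The restricted stefins reached at least 5089 CPM here. Stfa3 was at 11888, 12666, 5089 and 5889 CPM, Stfa2l1 at 7664, 11449, 7414 and 7873 CPM, and Stfa2 at 6743, 9596, 5222 and 6337 CPM. Levels of the 6 stefins were higher in liver and E19 than in the tubes, except that Stfa2l1 in liver lay between tube 1 and tube 2.

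Camp and Ngp, the granule genes, did not follow that split of libraries. Camp was at 44557 CPM in liver, 22539 at E19, 27122 in tube 1 and 25255 in tube 2, and Ngp at 32878, 23138, 24740 and 24305 CPM. Together they made up 18.8%, 12.7%, 22.1% and 21.3% of member UMIs. In tube 2 a Camp UMI was seen in 72.7% and an Ngp UMI in 69.2% of neutrophil-like cells, against 95.3% to 100% for the other 8 members. The late gene Retnlg, which encodes a secreted resistin-like protein of mature neutrophils, stood at 10244 CPM in tube 2, 10597 in tube 1, 1309 at E19 and 0 in the 9 liver cells (upper limit 45.3 CPM).

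All neutrophil-like cells of tube 2 with an assigned hashtag came from pup 1. The strict hashtag rule assigned 217 of the 253, all to pup 1, with 75 from bone marrow and 142 from spleen, and a rule corrected for background assigned 248, again all to pup 1. In the 75 bone marrow cells S100a9 stood at 62022 CPM and in the 142 spleen cells at 73284 CPM. Camp was at 20598 and 26021 CPM, and Stfa2 at 6124 and 6793 CPM. These are 2 tissues of 1 animal, so the gaps have no replicate. In tube 2 neutrophil-like cells were 34.2% of assigned pup 1 bone marrow cells and 9.40% of its spleen cells. By the rule corrected for background these shares were 19.6% and 8.60%. That corrected rule also gave the 5 neutrophil-like cells of tube 1 to pup 1, among its tdTomato-positive spleen cells (5 of 53, 9.43%). The strict rule assigned none of those 5, and neither rule assigned a neutrophil-like cell to pup 2 in either tube. Pup 2 had only 30 assigned cells in tube 2 by the strict rule and 80 by the corrected one, all tdTomato-positive. With 0 found, up to 11.6% and 4.51% are allowed, against 12.5% and 11.2% of 1730 and 2217 cells of pup 1 there. In tube 1 pup 2 had 2103 and 2550 assigned cells, all tdTomato-negative.

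**Figure D2:**
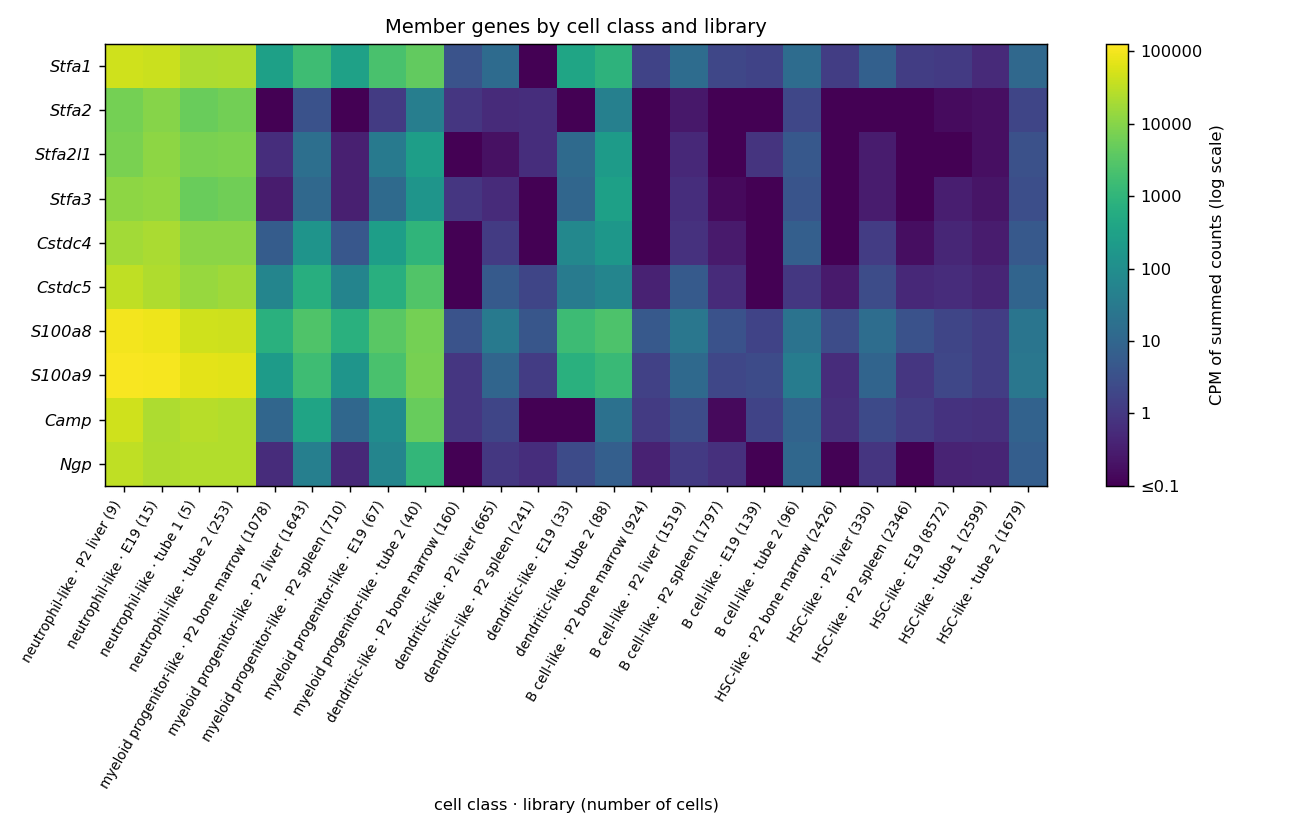
Level of each member gene (CPM of summed counts, colour on a log scale, values at or below 0.1 in the darkest colour) by cell class and library, with the number of cells in brackets. All 10 genes are bright in neutrophil-like cells, S100a8, S100a9, Stfa1 and Cstdc5 also in myeloid progenitor-like cells, and HSC-like and B cell-like columns are brighter in tube 2 and liver than elsewhere.

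The neutrophil-like cells of tube 2 were not uniform, and Camp and Ngp set themselves apart from the other members along 2 non-member genes. The cells were divided at the median ratio of Retnlg, a late gene, to Ltf, which encodes the secondary granule protein lactoferrin. This gave 127 cells of lower ratio (median 11099 UMIs) and 126 of higher ratio (median 5515.5 UMIs). Camp stood at 34228 CPM in the cells of lower ratio and 1314 CPM in those of higher ratio, 26.1-fold apart (counting interval 24.4 to 27.8). Ngp was at 32945 and 1251 CPM, 26.3-fold apart (24.6 to 28.2). For no other member was the gap over 1.77-fold. Across these cells Ltf itself varied with Camp and Ngp (Spearman's rho 0.85 and 0.92), so a gap in both follows in part from the split.

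Calprotectin stayed high in both kinds, with S100a9 at 72414 and 58820 CPM and S100a8 at 47891 and 32605 CPM in cells of lower and higher ratio. Among the stefins Stfa3 (6680 and 3777 CPM), Cstdc5 (18139 and 12364 CPM), Stfa1 (24817 and 19791 CPM) and Cstdc4 (11044 and 9848 CPM) were lower in the cells of higher ratio. Stfa2 ran the other way, at 5677 CPM in the cells of lower and 8099 CPM in those of higher ratio, 1.43-fold (1.38 to 1.47). Stfa2l1 also ran higher there, 7675 against 8401 CPM, 1.09-fold (1.06 to 1.13). Across these cells Stfa2 and Stfa2l1 varied with Retnlg (Spearman's rho 0.67 and 0.48) and Stfa3 and Cstdc5 with Ltf (0.76 and 0.72). Their directions too follow in part from the split. Intervals cover UMI sampling in 1 library, not the spread between animals.

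Non-member genes also differed between these 2 kinds of cell. Lcn2, which encodes a siderophore-binding granule protein, was at 11956 and 1946 CPM, Chil3 at 2225 and 8.47 CPM, and the proliferation gene Mki67 at 1243 and 5.64 CPM. The secondary granule genes Mmp8 and Olfm4 ran the other way, Mmp8 at 1380 and 2209 CPM and Olfm4 at 2282 and 2490 CPM. Mmp9, which encodes a gelatinase, was at 623 and 1514 CPM, and the chemokine receptor gene Cxcr2 at 396 and 1400 CPM. Lcn2 and Chil3 varied with Ltf (Spearman's rho 0.90 and 0.78) and Mmp9 with Retnlg (0.69), so these gaps also follow in part from the split. Across the 253 cells, as a description within 1 library, Spearman's rho of UMI shares was 0.92 for Camp with Ngp and −0.34 for Camp with Retnlg. For Stfa2 it was 0.67 with Retnlg, 0.69 with Mmp8, 0.76 with Stfa2l1 and 0.05 with Camp.

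**Figure D3:**
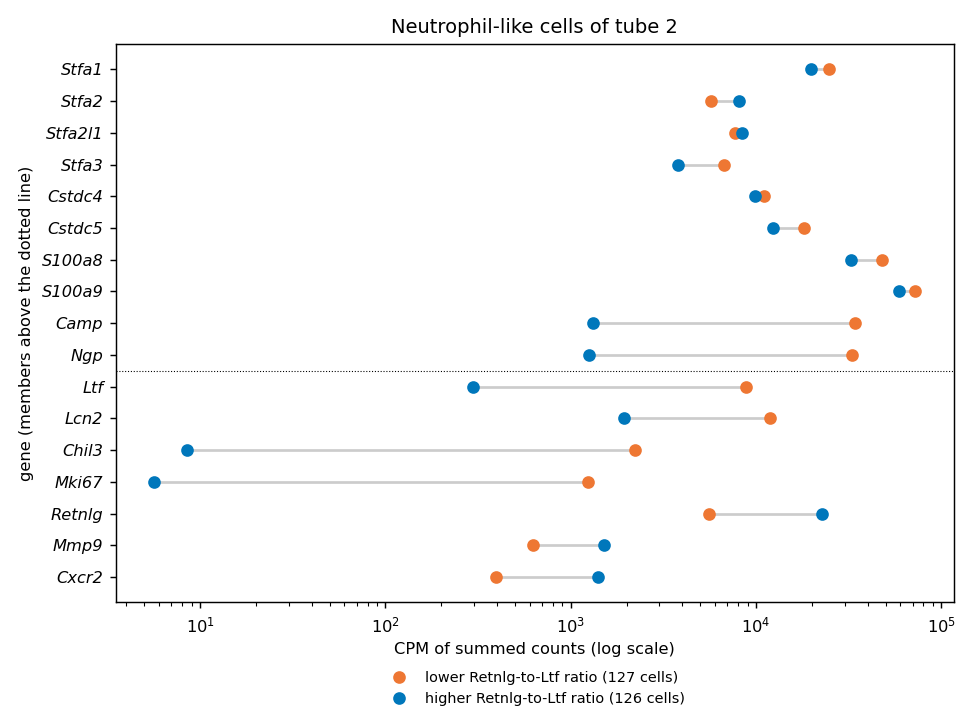
CPM of summed counts (log scale) for the 10 members above the dotted line and 7 further genes below it, in the neutrophil-like cells of tube 2 with the lower (orange, 127 cells) and higher (blue, 126 cells) Retnlg-to-Ltf ratio, split at the median. Camp and Ngp lie far apart between the 2 sets of cells, the stefins and calprotectin genes close together, and Stfa2 and Stfa2l1 are the members with blue to the right. Ltf and Retnlg set the split.

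Myeloid progenitor-like cells carried part of the programme. They numbered 1078 in pooled bone marrow, 1643 in liver, 710 in spleen, 67 at E19 and 40 in tube 2, while the 5 of tube 1 held no member UMI. Summed member CPM was 1319, 7156, 1266, 9190 and 28424 in these 5 libraries. S100a8 stood at 727, 2684, 731, 3500 and 6814 CPM and Stfa1 at 295, 1623, 314, 2259 and 4233 CPM. S100a9 was at 221, 1608, 149, 2254 and 7248 CPM, so in each library but tube 2 S100a8 exceeded it. Camp stood at 10.4, 362, 10.6, 91.9 and 4895 CPM and Ngp at 0.582, 43.6, 0.518, 60.9 and 1072 CPM, so both were lowest in pooled bone marrow and spleen and highest in tube 2.

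Stfa2 was the rarest member in these cells. It gave no UMI in pooled bone marrow and spleen and stood at 3.46 CPM in liver, 1.15 at E19 (1 UMI) and 40.4 in tube 2. In liver it was at 14.8 CPM in the 664 cells of cluster 16, which had a high mitochondrial share, and at 0.878 CPM in the 979 cells of cluster 10. Within tube 2, neutrophil-like cells exceeded myeloid progenitor-like cells 157-fold for Stfa2 (counting interval 123 to 204), 38.4-fold for Stfa3, 30.3-fold for Stfa2l1 and 22.7-fold for Ngp. For the other members the same ratio was 10.8-fold for Cstdc4, 9.48-fold for S100a9, 6.42-fold for S100a8, 6.10-fold for Cstdc5, 5.54-fold for Stfa1 and 5.16-fold for Camp. The ranking puts Camp beside S100a8 and Stfa1 and apart from Ngp, with which it varied closely among neutrophil-like cells.

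Make-up shows the same contrast without levels. In myeloid progenitor-like cells S100a8 was 55.1% of member UMIs in pooled bone marrow, 37.5% in liver, 57.8% in spleen, 38.1% at E19 and 24.0% in tube 2. The ratio of S100a9 to S100a8 was 0.305, 0.599, 0.204, 0.644 and 1.06. Stfa2, Stfa2l1 and Stfa3 together made up 0.071%, 0.446%, 0.055%, 0.487% and 1.60%, against 6.37% to 9.36% in neutrophil-like cells of the 4 libraries that hold them. Within pooled bone marrow S100a9 was 5.61% of member UMIs in cells with a member share up to 0.1%, 11.2% in those from 0.1% to 1% and 22.9% in member-rich cells. In spleen it was 5.57%, 7.66% and 15.03% in the same bins, so richer cells of both tissues had relatively more S100a9.

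Member-rich cells outside these classes were in tube 2 for the most part. An unnamed cluster with 70 cells there expressed the complement genes C1qa, C1qb and C1qc of macrophages, and 26 of the 70 were member-rich. Those 26 had a median of 16390 UMIs and 3908 genes against 5697 and 2097 in the other 44, S100a9 at 32292 against 51.0 CPM, Camp at 12055 against 6.12 CPM, and C1qb at 1310 against 2825 CPM. In these 26 cells Stfa2 stood at 3243, Stfa2l1 at 3503 and Stfa3 at 3354 CPM. All 26 had a C1qb UMI. Over the whole cluster 8 of 8 macrophage markers passed, but 7 of its 10 leading genes were members, so it stayed unnamed. Doublet scores had been used to remove 61 cells of this tube, and whether the 26 are doublets was not tested. Another 15 member-rich cells carried the dendritic-like name, but in tube 2 the larger of the clusters behind it, cluster 23, held 15176 CPM of monocyte markers and 1035 CPM of dendritic markers, so it is better called by its number. In the dendritic-like class of tube 2 S100a8 made up 45.0% of member UMIs and Camp with Ngp 0.468%.

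In liver, 664 cells of cluster 16 sat just under the threshold. They carried the myeloid progenitor-like name, with a median member share of 0.658% (quartiles 0.581 and 0.745). Their median mitochondrial share was 8.90% against 2.72% in the rest of the library, and they held transcripts of several lineages (Cd74 1040, Hba-a1 556, Igkc 552 and Vpreb3 344 CPM). With a threshold of 0.5% the member-rich share of liver was 15.02%, and 4.12% when this cluster was left out. At 1% leaving it out moved the share from 2.84% to 3.20%. What these barcodes hold was not tested.

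Low counts in HSC-like cells were the third pattern. None of 17952 HSC-like cells was member-rich, the highest share was 0.673%, and 4 cells reached 0.1%. A member UMI was seen in 84.6% of the HSC-like cells of tube 2, against 3.92% in pooled bone marrow, 29.4% in liver, 5.07% in spleen, 4.41% at E19 and 10.3% in tube 1. After thinning each cell of at least 5000 UMIs to that depth the shares were 38.5% in tube 2, 14.5% in liver and 2.59% to 3.13% in the other 4. Cells of lower depth were left out. This kept 1757 of 2426 cells in pooled bone marrow, 1794 of 2346 in spleen and 6184 of 8572 at E19. In liver it kept 304 of 330, in tube 1 2544 of 2599 and in tube 2 1630 of 1679. The level was 99.3 CPM in tube 2 (95% exact Poisson interval 96.2 to 103), 39.8 in liver (33.3 to 47.1), 5.54 in pooled bone marrow (4.52 to 6.72), 7.57 in spleen (6.36 to 8.95), 7.72 at E19 (7.02 to 8.47) and 5.47 in tube 1 (4.87 to 6.13). Tube 2 thus exceeded tube 1, of the same batch and a like median depth, 18.1-fold (16.1 to 20.5).

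Cells that should lack these genes also held them, at levels that went with the library. B cell-like cells under 1% had 10.2, 63.5, 9.22, 8.41 and 111 CPM of member UMIs in pooled bone marrow, liver, spleen, E19 and tube 2. Erythroid-like cells had 9.25, 34.1, 4.17, 6.80 and 123 CPM. After thinning, a member UMI was seen in 30.9% of B cell-like and 43.2% of erythroid-like cells of tube 2, whose median depths were 6493 and 39782 UMIs against 21933 in HSC-like cells. In liver these shares were 18.7% and 15.3%, at depths of 3521, 20171 and 9928 UMIs. Tube 1 had 9 B cell-like and 6 erythroid-like cells with 1 member UMI in all. In these 5 libraries the level in HSC-like cells was below that of B cell-like cells, and it was above that of erythroid-like cells in liver, spleen and E19. The intervals of HSC-like and B cell-like cells did not overlap in pooled bone marrow and liver, nor did those of HSC-like and erythroid-like cells in tube 2, spleen and pooled bone marrow. No HSC-like level in these 5 libraries exceeded both others. Whether the low counts are expression in HSC-like cells was not tested. Tube 1 has too few other cells for this comparison. Libraries that held a larger share of member UMIs in all had the higher level in HSC-like cells in tube 2 and liver, but not in the order of the other 4.

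Hashtags in the tubes allowed the same pup to be seen in both. HSC-like cells of pup 1 had 97.3 CPM of member UMIs in tube 2 (93.9 to 101, 1279 cells) and 2.23 CPM in tube 1 (0.057 to 12.4, 32 cells with 1 UMI). Those of pup 2 had 92.1 CPM in tube 2 (69.0 to 121, 30 cells) and 5.82 CPM in tube 1 (5.15 to 6.57, 2085 cells). Within tube 2, bone marrow and spleen cells of pup 1 had 100.2 and 97.1 CPM, and within tube 1 those of pup 2 had 5.72 and 5.97 CPM. For both pups the level was high in tube 2 and low in tube 1, and the sort changes with the tube for each pup.

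**Figure D4:**
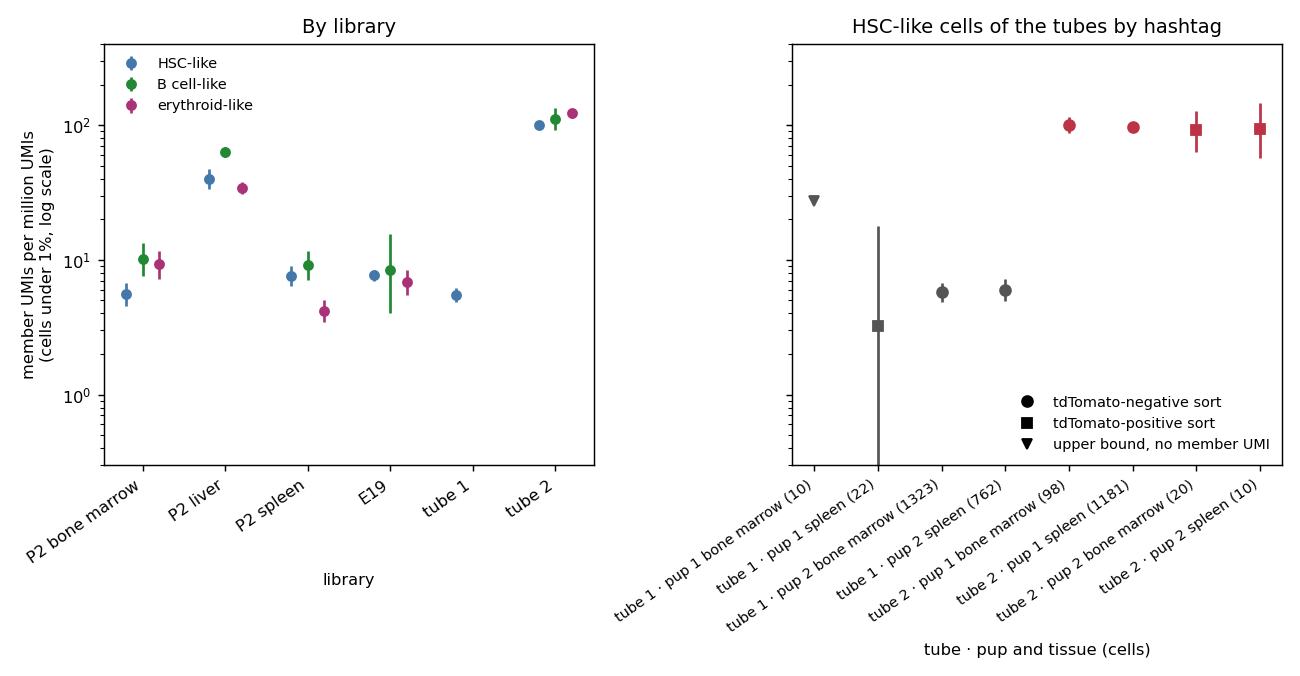
Member CPM (log scale) in cells below 1% with 95% exact Poisson intervals, at the left by library for HSC-like, B cell-like and erythroid-like cells, at the right for HSC-like cells of tube 1 (grey) and tube 2 (red) by pup, tissue and sort, with the number of cells in brackets. The 4 groups of tube 2 lie between 91.2 and 100.2 CPM and those of tube 1 between 0 and 5.97 CPM, whichever the pup.

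The make-up of these low counts differed between libraries. At E19 and in tubes 1 and 2 the ratio of S100a9 to S100a8 in HSC-like cells was 1.07, 1.01 and 1.12, and Stfa2, Stfa2l1 and Stfa3 made up 7.57%, 10.6% and 8.15% of the member UMIs. Summed over the 10 genes, the absolute gap to the make-up of neutrophil-like cells of the same library was 16.4, 19.7 and 19.4 percentage points, and to myeloid progenitor-like cells 49.6 at E19 and 25.7 in tube 2. In liver it was 44.2 points to neutrophil-like and 13.1 to myeloid progenitor-like cells. In pooled bone marrow and spleen, with 102 and 138 member UMIs, the gap to myeloid progenitor-like cells was 30.2 and 42.0 points, and Camp with Ngp made up 13.7% and 16.7% against 0.834% and 0.879% in the progenitors.

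Other neutrophil genes were present at low level in the same HSC-like cells. The 12 neutrophil markers, none of them members, summed to 63.5 CPM in tube 2, 43.8 in tube 1, and 26.2 to 30.2 CPM in the other 4 libraries, most of it Pglyrp1 (18.1 to 45.9 CPM). Retnlg stood at 3.24 CPM in tube 2, 0.181 in tube 1, 0.017 at E19 and 0 in the 3 pooled tissues. Lcn2 was at 3.42 CPM in tube 2 and 0 to 1.19 CPM elsewhere. None of the 12 was at 0 in tube 2, and 2 to 6 of them were at 0 in each other library. The part of free RNA in these counts was not tested.

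In member-rich cells further genes of the granulocyte programme ran with the members, more of them in tube 2, E19 and liver than in pooled bone marrow and spleen. Of 10 secondary granule genes, 10 were at least 2-fold higher in member-rich than in other cells of tube 2, where 12.5% of all genes were, 10 at E19 (9.6% of all genes), 9 in liver (4.62%), 7 in pooled bone marrow (4.4%) and 6 in spleen (6.15%). Over the cells of all libraries the background was 9.3% higher and 24.3% lower, and folds take log2(CPM + 1). Here and in the comparisons of member-rich with other cells below, CPM was scaled to all UMIs except those of the 10 members. Levels in member-rich cells are thus higher than on the scale used above. Ltf stood at 6063 against 4.10 CPM and Lcn2 at 8647 against 4.25 CPM in tube 2, while in pooled bone marrow Ltf was at 0 and 0.542 CPM and Lcn2 at 103 and 9.18 CPM. Of 12 late neutrophil genes, 12, 11, 8, 4 and 7 were at least 2-fold higher in the same 5 libraries. Retnlg was at 9131 against 3.58 CPM in tube 2 and at 0 in both sets of pooled bone marrow cells. With 1 library each there is no test, and member-rich cells were selected by the members.

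Primary granule genes were the ones shared by all. The list of 7 was at least 2-fold higher as a whole in member-rich cells of every one of the 5 libraries, where 4.4% to 12.5% of all genes were. In pooled bone marrow Prtn3 stood at 10608 against 1713 CPM, Elane at 7745 against 750, Ctsg at 7578 against 1267 and Mpo at 7444 against 1361 CPM, all encoding azurophil granule enzymes. The 12 HSC markers ran the other way, with 12, 10, 10, 11 and 11 at least 2-fold lower in tube 2, E19, liver, pooled bone marrow and spleen, where 39.4%, 39%, 20.9%, 29.6% and 32.4% of all genes were. All 8 macrophage markers were at least 2-fold higher in the member-rich cells of tube 2, where 12.5% of all genes were. Those cells include the 26 of the C1q cluster. At E19 5 of 8 were lower.

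The targets of stefins and their relatives were looked at in the same way. Of the 7 cysteine cathepsin genes, 5 were at least 2-fold higher and 1 lower in member-rich cells of tube 2, 2 higher and 1 lower at E19, and none higher and 2 lower in liver, pooled bone marrow and spleen. Of all genes 12.5% were higher in tube 2 and 9.6% at E19, and 20.9%, 29.6% and 32.4% were lower in liver, pooled bone marrow and spleen, so the 2 lower cathepsins there lie near the background. In tube 2 Ctsb stood at 488 against 127 CPM, Ctss at 233 against 72.7 and Ctsh at 148 against 32.3 CPM, all lysosomal proteases. In pooled bone marrow Ctss was at 3.43 against 27.5 CPM and Ctsh at 6.85 against 15.7 CPM. Among the 7 other stefin and cystatin genes, 5 were higher in tube 2 and at E19. In liver 4 were (4.62% of all genes), and 3 each in pooled bone marrow (4.4%) and spleen (6.15%). Csta2, a stefin gene beside the members, was at 2626 against 1.19 CPM in tube 2, and Csta3 at 316 against 0.142 CPM.

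Transcription factor genes of granulocytes were less even. Of 8, 5 to 7 were at least 2-fold higher in member-rich cells of each of these 5 libraries, where 4.4% to 12.5% of all genes were. Cebpe, needed for secondary granule formation, was at 286 against 34.1 CPM in pooled bone marrow, 427 against 38.8 in liver and 520 against 4.99 in tube 2. Gfi1 was at 146 against 25.7 CPM in pooled bone marrow and at 26.5 against 33.0 in tube 2. Tlr4, a receptor gene for calprotectin, was at 63.5 against 12.9 CPM in tube 2, while Ager, the other, was at 2.18 and 1.07 CPM.

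Genes that varied most like the summed members were found over 35 library-by-class sums of at least 50 cells, with Pearson's r of log2(CPM + 1) as the measure and 9185 genes considered. They were Fcnb (0.94), Lcn2 (0.93), Wfdc21 (0.93), C3 (0.92), Msrb1 (0.92), Abca13 (0.92), Mcemp1 (0.91), Hp (0.90), Trem3 (0.90) and Clec4a2 (0.88). Sums of 1 library share its depth and background. Over the same sums Stfa1 followed S100a8 at 0.99 and Stfa2l1 followed Stfa3 at 0.99, while Stfa2 was at 0.75 with S100a8 and 0.97 with Stfa3.

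P2 bone marrow and spleen could be compared over 3 sources, the pool and the tdTomato-negative cells of each pup. The share of member-rich cells was 0.629% and 0.279% in bone marrow and spleen of the pool and 38.8% (85 of 219) and 10.9% (164 of 1511) in those of pup 1. In pup 2 it was 0 of 1332 and 0 of 771, which allows up to 0.277% and 0.477%. Bone marrow was higher in 2 of 3 sources, with means of 13.1% and 3.71% (2-sided exact permutation test, p = 0.7). This test ignores that tissues of a source are paired, and with 3 sources it cannot give a p below 0.1, so it could not have shown a difference. The difference of 9.44 points was 0.175 points without pup 1, on which it rests, and 4.47 points with hashtags corrected for background. The share of thinned HSC-like cells with a member UMI was 3.13% and 2.79% in the pool, 38.8% and 37.7% in pup 1 and 2.74% and 2.90% in pup 2 (exact permutation p = 0.7).

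Summed counts gave no member that differed between the tissues. In HSC-like cells, S100a8 stood at 2.55 CPM in bone marrow and 3.40 in spleen of the pool, 23.4 and 23.7 in pup 1 and 1.34 and 1.33 in pup 2, so the sources lay apart and the tissues together. edgeR's quasi-likelihood test called 0% of 14019 genes (0, with 315 at an unadjusted p under 0.05, and 4 by DESeq2). The 5 members that passed the filter on low counts, S100a8, S100a9, Camp, Ngp and Stfa1, had log2 differences of −0.80 (SE 1.22), −0.85 (1.38), −0.88 (1.16), −1.57 (1.29) and −1.10 (1.24), each with an adjusted p of 1.00. This fit had a batch term but none for the source, so the gap between the pups was left in it. Ngp was higher in bone marrow of the pool (0.109 against 0.0549 CPM, 2 and 1 UMIs) and of pup 2 (0.558 against 0.373). In pup 1 it was lower there (4.50 against 6.64). Without a filter 87 genes were called, among them S100a8, S100a9 and Stfa1 (log2 differences −0.84, −0.90 and −1.11, adjusted p 0.0199, 0.0282 and 0.0362 by the same test). That fit had no source term either.

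Over all kept cells, S100a8 was at 225 and 116 CPM in bone marrow and spleen of the pool, 7252 and 2365 in pup 1 and 1.33 and 1.32 in pup 2. Bone marrow was thus higher in the pool and pup 1 and level with spleen in pup 2. The same test called 0% of 15185 genes (0, with 284 at an unadjusted p under 0.05, and 11 by DESeq2), and the 7 members tested had log2 differences of 1.24 to 1.57 with adjusted p from 0.992 to 0.997. With a term for the source, which pairs the tissues of each animal or pool, 2 genes were called in each comparison and no member. The members then had log2 differences of −0.22 to −0.13 in HSC-like cells and 0.96 to 1.36 in all kept cells. Without pup 1 39 and 92 genes were called and without pup 2 31 and 56, again no member.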

How the data were processed

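Droplet RNA sequencing (Chromium Single Cell 3' v3, per the labels) was analysed in 6 of 8 samples; the 2 hashtag samples hold reference lists and were not used. The deposited matrices are raw UMI counts of 32285 genes, made with Cell Ranger 7.0.0 (pool), 7.1.0 (E19) and 8.0.1 (tubes) per the file headers, while the submitters' processing notes give Cell Ranger 7.0.0 and mm10. Gene coordinates are those of GENCODE vM21; promoters are RefSeq's. The members and gene lists were chosen with earlier results of these data known. All 10 members are described; of each companion list at most the 4 genes highest in member-rich cells, genes that show a split, and the 10 genes most like the members are named, the second kind after their values were seen.

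Barcodes passed with at least 1000 genes, 2000 UMIs and at most 10% mitochondrial UMIs (6550, 5634, 9043, 10725, 2722 and 2473). The highest Scrublet scores were then removed, 0.8% of barcodes per 1000 barcodes (504, 314, 788, 1012, 65 and 61 of those that passed). Hashtags were assigned to cells with a single hashtag above the 99th percentile that it reached in cells dominated by another, and with at least 3 times the runner-up (2140 and 1760 cells of tubes 1 and 2). Clustering used scanpy 1.11.5 and leidenalg 0.10.2 with 2000 variable genes, without members and neutrophil granule genes, 30 components, 15 neighbours and resolution 1. Clusters were named where 3 or more markers, and 50% of a list, reached 10 CPM and 2-fold, thresholds set after the data were seen. A name was withheld where the 10 leading genes held more markers of another list, or more members, than its own markers. The veto by members did not apply to the neutrophil-like name, and 1 cluster stayed unnamed by it. Intervals are exact 95% binomial or Poisson (scipy 1.17.1) and cover counting error only.

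Summed counts of 3 sources by tissue were fitted by the quasi-likelihood method of edgeR 4.0.16 (R 4.3.3) with a batch term, TMM scaling, the filterByExpr filter and Benjamini-Hochberg adjustment at 0.05, and DESeq2 1.42.0 as an alternative, and were tested on simulated data. Bone marrow and spleen of a source come from the same animals. Their deviations from the tissue means correlated at 0.81 (pool), 0.72 (pup 1) and 0.68 (pup 2) in HSC-like cells and 0.85, 0.75 and 0.85 in all kept cells. The summed tissues of each pup also share a tube and those of the pool a batch, so these correlations cannot show pairing by animal alone. Alternatives changed the normalization, low-count filter, source term, sources, hashtag rule, doublet removal, clustering, the 1% threshold, the genes summed, the cell filter and the depth of thinning.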

Additional observations from a re-analysis of the deposited data

Results flagged for a closer look

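Barcodes that the analysis had set aside also held member transcripts. Outside the cell filter, at least 1% of UMIs in the members was found in 4 of 1233 barcodes of liver (0.324%) and 12 of 365 of tube 2 (3.29%), with median depths of 2246 and 893 UMIs. In pooled bone marrow and spleen it was 1 barcode each, with 40.9% and 42.5% of 3085 and 2824 UMIs in the members and 940 and 948 genes, just under the minimum of 1000 genes. These barcodes were not clustered, and no class was assigned to them. Among barcodes removed for their doublet score, 22 of 314 in liver and 15 of 61 in tube 2 held at least 1%, against 0 or 1 in each other library.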

How the results depend on the processing

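Between P2 bone marrow and spleen, genes called in HSC-like sums numbered 4 with DESeq2, 87 without a filter, 2 with the replicate block for the source and 0 to 39 on leaving out a source, against 0. In sums of all kept cells the numbers were 11 with DESeq2, 2 with the replicate block and 0 to 92 on leaving out a source. The block changed no member's call. Under the alternatives 118 member fold changes kept direction and side of the threshold, and 3 passed it, those of S100a8, S100a9 and Stfa1 without a filter. The difference in member-rich share kept its sign and was 0.175 to 14.2 points on leaving out a source. The difference in HSC-like cells with a member UMI, 0.410 points, was −1.13 points at 2500 UMIs and −1.79 points unthinned, with exact permutation p of 0.5 and 0.7; the cause was not tested. Among shares in single libraries 53 stayed within their interval under the alternatives and 21 did not. A threshold of 0.5% or 2% moved the member-rich share in each pooled tissue, and without S100a8 and S100a9 in the sum the member-rich share fell to 0.0496% in pooled bone marrow and 0.0606% in spleen. Depth limits what HSC-like cells can show: 102 to 449 member UMIs in 5 of the 6 libraries.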
